A study of Arabidopsis thaliana with 9 samples.

Results

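The calmodulin-like (CML) genes were taken as the probe sets whose gene symbol, in the array annotation or in the reference gene table, is CML followed by a number. This gave 7 of 22746 tested probe sets and 7 of the 13286 genes that could be named, 1 probe set for each of CML23 (AT1G66400), CML30 (AT2G15680), CML37 (AT5G42380), CML38 (AT1G76650), CML41 (AT3G50770), CML42 (AT4G20780) and CML43 (AT5G44460). The reference table holds 8 loci with such a symbol and 14 with such a symbol or synonym, and the further loci of these, apart from AT1G76640, were not analysed here. AT1G76640, named CML39 among its synonyms only, is described beside CML38 and is not counted among the 7. All 7 probe set identifiers end in _at, the array maker's mark for a set designed against a single transcript. The genes lie on chromosomes 1 (CML23 and CML38), 2 (CML30), 3 (CML41), 4 (CML42) and 5 (CML37 and CML43) of the reference table (assembly TAIR10.1).

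CML proteins are relatives of calmodulin. They bind calcium through EF-hand loops, change shape and act on target proteins, and most carry no enzyme domain of their own. Plants hold a large family of them, and many of its genes respond to touch, wounding, pathogens, low oxygen or hormones.

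RNA came from Arabidopsis thaliana (Columbia) cultures of 3 genotypes with 3 Affymetrix arrays each. They were 35S:AGL15, which expresses the MADS-domain factor AGL15 constitutively from the viral 35S promoter, the insertional loss-of-function double mutant agl15-4 agl18-1, and wild type. Every genotype was germinated in shaken liquid MS medium with 4.5 µM of the auxin 2,4-D, 2% sucrose and 10 mM MES, in a cycle with 23 h light and 1 h dark, and was harvested on day 10. The labels call the material a shoot apical meristem somatic embryo culture and the arrays biological replicates, without saying whether these were separate cultures. The p-values set genotype differences against the spread between these samples, which may or may not include that between cultures. Whole cultures were sampled, so fewer cells of a type and less RNA per cell cannot be told apart.

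The annotation gives no probe set to AGL15. AGL18 averaged 66.4 ± 21.3 intensity units in 35S:AGL15, 81.5 ± 27.8 in the double mutant and 179 ± 9.55 in wild type (SD, n = 3), and where its probe set lies relative to the insertion is not stated. The background level of an array, the brightest of 27 Bacillus control probe sets, was 17.0 to 28.1 in 35S:AGL15, 21.8 to 40.5 in the double mutant and 13.7 to 21.0 in wild type. Arrays of a genotype correlated at 0.943 or more on the log2 scale. The geometric mean of 9 bacterial and phage spike-in controls was 715 to 1273 in 35S:AGL15, with replicate 3 the highest, 1065 to 1690 in the double mutant and 657 to 875 in wild type. Spike-in controls were thus brighter on all double mutant arrays than on any wild type array, and this difference and the genotype cannot be told apart. The 3′ to 5′ ratio of the actin control, a measure of RNA integrity, was 1.34 to 1.48 in 35S:AGL15, 1.40 to 2.31 in the double mutant and 1.33 to 1.49 in wild type. Of 10 listed shoot meristem markers 2 were measured. CLV3, the stem cell peptide, lay below background on all 9 arrays, and LAS, a regulator of axillary meristems, lay above it on all 9, with means of 71.4 ± 21.95 in 35S:AGL15, 111 ± 9.26 in the double mutant and 141 ± 42.6 in wild type. BBM, an embryo regulator, averaged 503 ± 145 in 35S:AGL15, 506 ± 60.4 in the double mutant and 485 ± 84.2 in wild type.

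"Rose", "fell" and "called" below mean an adjusted p under 0.05 by limma, with Benjamini-Hochberg adjustment over all 22746 probe sets. In 35S:AGL15 against wild type, 1 of the 7 CML probe sets was called, CML38, which rose. Of all probe sets 3.68% were called in this comparison, 1.38% higher and 2.31% lower. In the double mutant against wild type 0 of 7 were called, where 18.9% of all probe sets were, 3.90% higher and 15.0% lower. At an unadjusted p under 0.05, 3 of the 7 (CML30, CML37 and CML38) would count in that comparison, against 34.3% of all probe sets. By the same measure 3 of 7 would count in 35S:AGL15 against wild type (17.8% of all probe sets). It would be 2 of 7 in 35S:AGL15 against the double mutant (31.3% of all). Between 35S:AGL15 and the double mutant 2 of 7 were called, CML43 and CML30, both higher in 35S:AGL15, where 15.7% of all probe sets were called and 10.4% were higher. With 7 members these shares of 14.3%, 0% and 28.6% rest on single genes. Of the 7, 6 lay above background on all 9 arrays, and CML37 did so on 3.

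**Figure D1:**
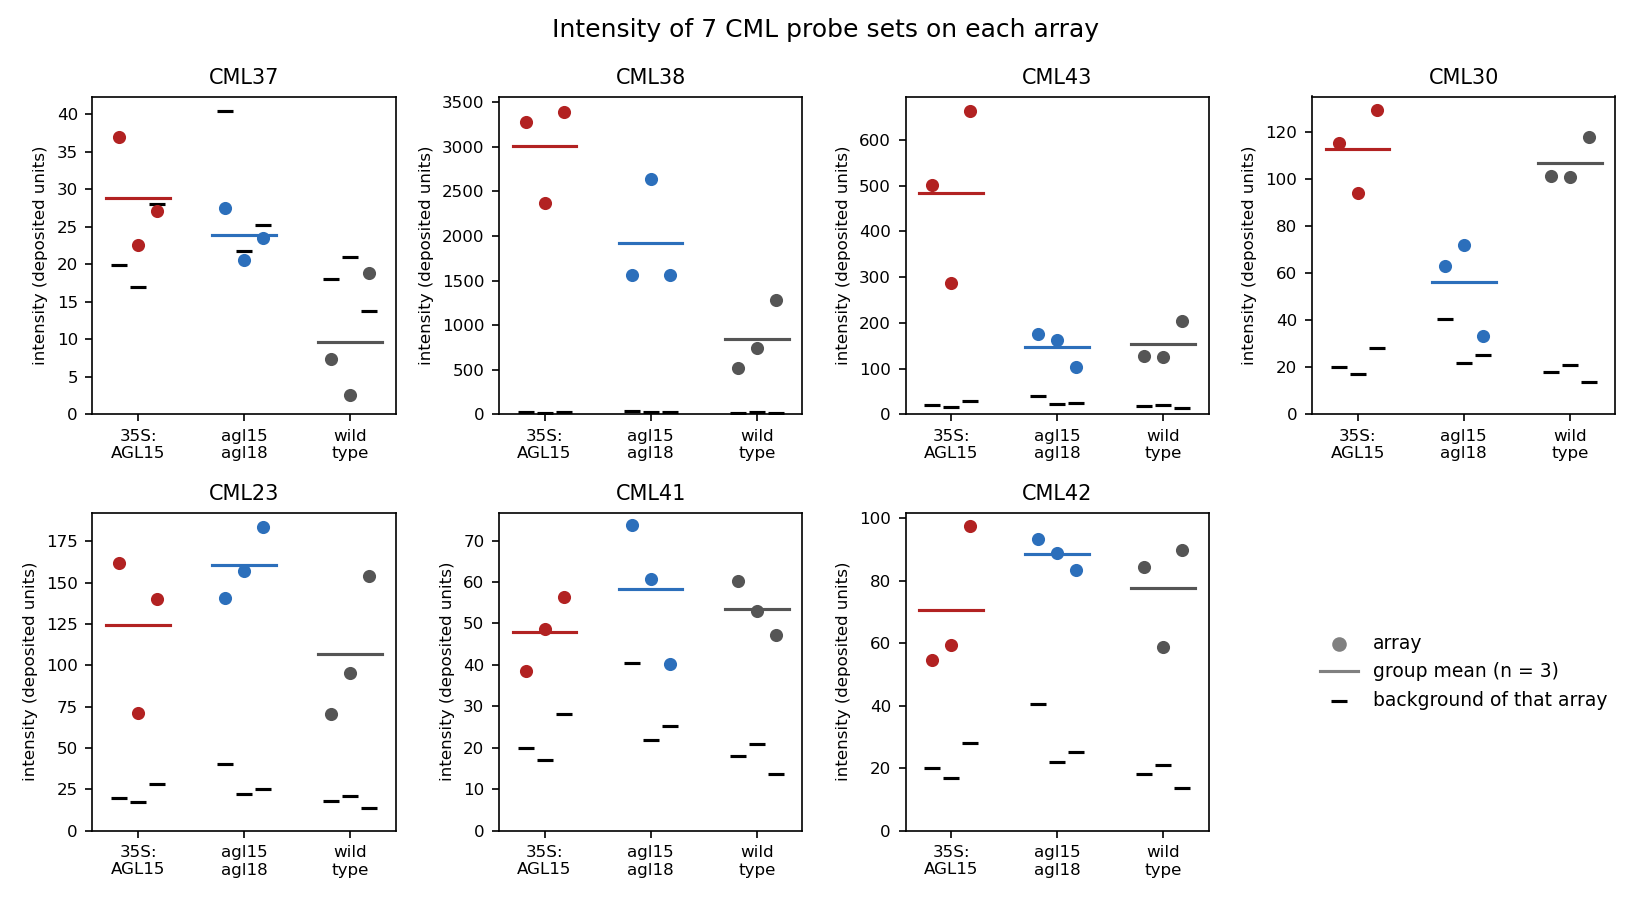
Deposited intensity of each CML probe set (vertical axis, from 0, a separate scale for each gene) on the 3 arrays of 35S:AGL15, the agl15 agl18 double mutant and wild type, replicates 1 to 3 from left to right. Points are arrays, coloured lines are group means and short black bars are the background level of that array; CML38 and CML43 were higher on every 35S:AGL15 array than on any wild type array, CML30 was lower on every double mutant array than on any other array, and CML37 lay close to background.

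CML38, a calcium sensor known for its strong induction by low oxygen and wounding, had intensities of 3272, 2368 and 3394 in 35S:AGL15 (replicates 1 to 3), 1563, 2639 and 1566 in the double mutant and 515, 741 and 1278 in wild type. All 35S:AGL15 arrays and all double mutant arrays lay above the highest wild type array, while double mutant replicate 2 lay above 35S:AGL15 replicate 2. CML38 averaged 3012 ± 560.4 in 35S:AGL15, 1923 ± 621 in the double mutant and 845 ± 392 in wild type (SD, n = 3). Its log2 rise in 35S:AGL15 was 1.92 (SE 0.37, 3.78-fold, adjusted p = 0.0314 by limma) and ranked 230 among all 22746 log2 changes, which had a median of −0.13. The double mutant estimate was 2.37-fold above wild type (1.24, SE 0.37, 95% confidence interval 0.40 to 2.09), with an adjusted p of 0.050007, just outside the threshold. Its size moved with the scaling, to 0.44 under spike-in scaling (adjusted p = 0.422) and 1.76 under median centring (adjusted p = 0.0186). The 35S:AGL15 and double mutant values differed by 0.68 (interval −0.17 to 1.52, adjusted p = 0.253), a difference that did not pass, so the order of these neighbouring genotypes is not settled.

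The CML38 call in 35S:AGL15 ended when 35S:AGL15 replicate 1 (log2 change 1.85, adjusted p = 0.111), 35S:AGL15 replicate 3 (1.82, 0.0905), double mutant replicate 3 (1.92, 0.0537), wild type replicate 1 (1.61, 0.0999) or wild type replicate 2 (1.87, 0.120) was left out. It also ended under spike-in scaling (1.68, adjusted p = 0.110) and, among the 5 arrays with dimmer spike-in controls, the size was 1.82 (adjusted p = 0.164). In the same comparison the seed and embryo markers OLEO3, an oil body protein, and PAP85, a storage protein, rose 6.21-fold and 4.48-fold, with 3 of 17 listed markers measured. The summed intensity of all 3, which include BBM, was 1986 to 3200 in 35S:AGL15, 961 to 1604 in the double mutant and 659 to 1005 in wild type, and its part in the CML38 result was not tested. The summed green leaf markers (4 of 11 measured) were 5644 to 8299 in 35S:AGL15, 9240 to 10175 in the double mutant and 7969 to 10428 in wild type. These 4 did not move together. In the double mutant against wild type PRK was called lower (log2 change −1.14, adjusted p = 0.00872 by limma) and the other members were not called. Between 35S:AGL15 and the double mutant PRK was called higher in 35S:AGL15 (0.85, adjusted p = 0.0292) and LHCB4.2 lower (−1.06, adjusted p = 0.0491). The summed root hair markers (2 of 5 measured) were 248 to 341 in 35S:AGL15, 224 to 304 in the double mutant and 151 to 246 in wild type. Neither root hair marker was called in any comparison, and their part in the CML38 result was not tested.

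The gene next to CML38 on chromosome 1 is AT1G76640 (CML39 by synonym, known from work in Arabidopsis on early seedling growth). It was called in no comparison. Its intensities were 3.13, 3.74 and 36.1 in 35S:AGL15 cultures, 29.5 to 37.0 in the double mutant and 18.6, 11.1 and 30.8 in wild type. It lay above background on 1, 2 and 2 arrays of these groups, so its values are close to the limit of measurement. They cannot show whether this gene shares the CML38 pattern. No fold is given for 35S:AGL15, and the double mutant and wild type differed by 0.82 (interval −1.17 to 2.81, adjusted p = 0.552).

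CML37, known for a positive part in jasmonate signalling and defence against herbivores, was the only one of the 7 that did not lie above background on all arrays. It had 36.9, 22.6 and 27.0 in 35S:AGL15 cultures, 27.6, 20.6 and 23.5 in the double mutant and 7.32, 2.60 and 18.9 in wild type. Every array of both altered genotypes lay above the wild type arrays in intensity, but only 2 of 3 arrays of 35S:AGL15, 0 of 3 of the double mutant and 1 of 3 of wild type were above background. The log2 change was 1.99 in 35S:AGL15 (SE 0.62, adjusted p = 0.143) and 1.74 in the double mutant (SE 0.62, adjusted p = 0.0881). Neither passed, and no fold is given. These sizes rest on values below background: with values raised to background the 35S:AGL15 change was 0.57 and the double mutant change 0.55. Without wild type replicate 2 the 35S:AGL15 change was 1.27 and the double mutant change 1.01.

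CML43, described in Arabidopsis as induced during disease resistance responses, had 502, 288 and 663 in 35S:AGL15 cultures, 175, 163 and 104 in the double mutant and 128, 126 and 205 in wild type. The 35S:AGL15 arrays all lay above the other 6 arrays, and the double mutant and wild type overlapped. CML43 averaged 484 ± 188 in 35S:AGL15, 147 ± 38.0 in the double mutant and 153 ± 44.8 in wild type (SD, n = 3). It was 3.18-fold higher in 35S:AGL15 than in the double mutant (log2 1.67, SE 0.37, adjusted p = 0.0230), and this call passed in 14 of 19 alternatives. Against wild type the estimate was 3.07-fold (1.62, SE 0.37, interval 0.78 to 2.46), which missed the threshold with an adjusted p of 0.0555. Between the double mutant and wild type the log2 change was −0.052 (interval −0.89 to 0.79, adjusted p = 0.941), and changes within these bounds cannot be told from none.

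The CML43 call against the double mutant ended without 35S:AGL15 replicate 1 (1.60, adjusted p = 0.0773) or double mutant replicate 3 (1.44, 0.0768). It also ended under quantile normalization (1.37, 0.0648), under median centring (1.39, 0.0619) and in the fit on these 2 genotypes alone (1.67, 0.0634). In 35S:AGL15 against wild type the size was 1.35 within the 5 arrays with dimmer spike-in controls (adjusted p = 0.202).

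CML30, a calcium-binding protein reported at mitochondria, had 115, 93.9 and 129 in 35S:AGL15 cultures, 62.9, 71.9 and 33.4 in the double mutant and 101, 101 and 118 in wild type. Every double mutant array was below the other 6, and 35S:AGL15 and wild type overlapped. Double mutant replicate 3, at 33.4, lay near its background of 25.2, and replicate 1, at 62.9, had a background of 40.5. The means were 113 ± 17.8 in 35S:AGL15, 56.0 ± 20.1 in the double mutant and 107 ± 9.65 in wild type (SD, n = 3). CML30 was higher in 35S:AGL15 than in the double mutant by a log2 difference of 1.07 (SE 0.30, adjusted p = 0.0459). Its log2 change in the double mutant against wild type was −0.998 (SE 0.30, interval −1.68 to −0.32, adjusted p = 0.0509), which did not pass. In 35S:AGL15 against wild type it was 0.072 (interval −0.61 to 0.75, adjusted p = 0.919). The call against the double mutant passed in 7 of 18 alternatives. Leaving out 35S:AGL15 replicate 2 or double mutant replicate 2 kept it, and leaving out any other single array ended it, with log2 changes of 0.73 (without double mutant replicate 3) to 1.19 (without double mutant replicate 1) and adjusted p-values of 0.0690 to 0.123. It also ended under quantile normalization (0.88, adjusted p = 0.130) and median centring (0.79, 0.133).

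**Figure D2:**
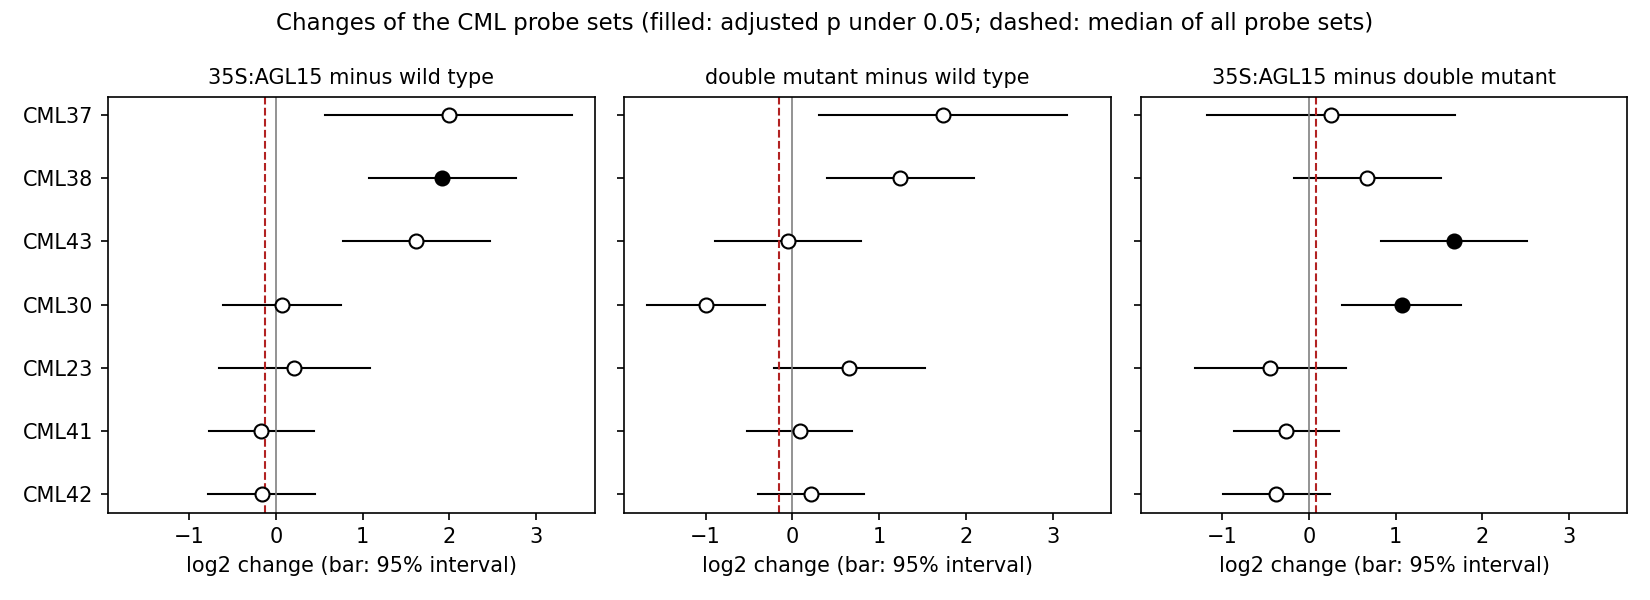
Log2 change (horizontal axis) of each CML probe set in the 3 comparisons, with 95% confidence intervals from limma. Filled points passed an adjusted p of 0.05, the dashed line is the median of all 22746 probe sets; CML38 in 35S:AGL15 against wild type, and CML43 and CML30 in 35S:AGL15 against the double mutant, are the filled points.

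CML23, a regulator of flowering time and nitric oxide level together with its close relative TCH2 (CML24), passed in no comparison. Its intensities were 162, 71.3 and 140.0 in 35S:AGL15 cultures, 141, 157 and 184 in the double mutant and 70.6, 95.6 and 154 in wild type. The 3 genotypes overlapped, and the log2 changes were 0.21 in 35S:AGL15 (interval −0.66 to 1.08) and 0.66 in the double mutant (interval −0.22 to 1.53) against wild type. The highest array was 2.27-fold above the lowest within 35S:AGL15 and 2.18-fold within wild type.

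CML41, which acts at plasmodesmata in the response to bacterial flagellin, and CML42, which takes part in trichome branching and in defence against herbivores, had the smallest changes from wild type in 35S:AGL15 after CML30. CML41 had 38.5, 48.7 and 56.3 in 35S:AGL15 cultures, 73.7, 60.8 and 40.3 in the double mutant and 60.4, 52.9 and 47.1 in wild type. CML42 had 54.6, 59.5 and 97.6 in 35S:AGL15 cultures, 93.3, 89.0 and 83.6 in the double mutant and 84.4, 58.7 and 89.8 in wild type. For both genes all 3 genotypes overlapped. In 35S:AGL15 against wild type the changes were −0.17 for CML41 (interval −0.78 to 0.44) and −0.16 for CML42 (interval −0.78 to 0.45), which leaves room for falls of up to 0.78 on the log2 scale. Against wild type the double mutant changes were 0.087 (interval −0.52 to 0.69) and 0.21 (interval −0.40 to 0.83).

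The 7 genes had a median log2 change of 0.21 in each altered genotype against wild type, where all probe sets together had −0.13 for 35S:AGL15 and −0.16 for the double mutant. Between 35S:AGL15 and the double mutant the 7 had a median of 0.25 and all probe sets 0.080. The 2 comparisons with wild type share the wild type arrays, so their values are not independent. The groups did not overlap for 3 of 7 genes in 35S:AGL15 against wild type (CML37, CML38 and CML43), against 23.0% of all probe sets. They did not overlap for 3 of 7 in the double mutant against wild type (CML30, CML37 and CML38), against 46.1%, nor for 2 of 7 between 35S:AGL15 and the double mutant (CML30 and CML43), against 33.9%. The CML genes also varied within genotypes. Wild type replicate 3 held the highest wild type value for 6 of the 7 genes, CML41 being the exception, where it was the highest wild type array for 32.8% of all probe sets. Within 35S:AGL15, replicate 3 was the highest for 5 of 7 and replicate 2 the lowest for 5 of 7, against 31.7% and 29.8% of all probe sets.

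Of all 7 genes CML38 had the smallest p for any difference among the 3 genotypes (moderated F test over all probe sets, adjusted p = 0.0208). CML43 was nearly level with it (adjusted p = 0.0222 by the same F test), and CML30 followed (0.0527). Among 1150 probe sets with a gene symbol that were above background on every array, the 5 whose log2 intensity was most like that of CML38 over the 9 arrays were EXPA8, an expansin of the cell wall (Pearson r = 0.93), ARL, a promoter of cell expansion (0.93), CCL (0.92), the Derlin gene DER2.2 (0.92) and P1R3 (0.91). These correlations describe 9 arrays that fall into 3 genotypes and share the array scaling. EXPA8 averaged 1475 ± 49.3 in 35S:AGL15, 806 ± 116 in the double mutant and 371 ± 47.0 in wild type (SD, n = 3).

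Other parts of calcium signalling were compared by 12 lists chosen by symbol or locus, and 10 of them, among them calmodulins, calcineurin B-like sensors and calcium-dependent kinases, had no annotated probe set. The search covered the 13513 probe sets annotated to 1 gene, and 8730 probe sets had no gene. A family without an annotated probe set may therefore still be on the array. The IQD proteins bind calmodulin through IQ motifs and associate with microtubules. Of 15 IQD probe sets 6 fell and 0 rose in the double mutant against wild type, where 15.0% of all probe sets fell. IQD32 averaged 61.9 ± 6.40 in the double mutant and 391 ± 42.0 in wild type (6.31-fold lower, adjusted p = 0.00201). IQD31 averaged 435 ± 101 in the double mutant and 1588 ± 54.0 in wild type (3.72-fold lower, adjusted p = 0.00277), and IQD15 averaged 155 ± 18.6 in the double mutant and 566 ± 89.3 in wild type (3.65-fold lower, adjusted p = 0.00333). The annotation writes IQD15, IQD32 and IQD33 in lower case. IQD33 (log2 change −2.29, with 2 of 3 double mutant arrays above background), IQD19 (−1.76, with 1 of 3) and IQD30 (−0.87) were the other 3. The median of the 15 was −0.77, against −0.16 for all probe sets. It was −0.32 against 0.060 under quantile normalization, −0.25 against 0.36 under median centring and −1.57 against −0.96 under spike-in scaling. Lower calls numbered 6, 5 and 10 under these settings, where 16.4%, 24.9% and 32.7% of all probe sets were called in either direction. Median centring also gave 1 higher call. Against wild type 0 of 15 were called in 35S:AGL15 by limma, with a median of −0.14 and 1 at an unadjusted p under 0.05. With array weights 1 was called higher and 3 lower there, a setting under which 28.4% of all probe sets were called. Between 35S:AGL15 and the double mutant, which uses the same double mutant arrays, 6 of 15 were higher in 35S:AGL15, where 10.4% of all probe sets were, and 0 lower.

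The glutamate receptor-like channels (GLR), which admit calcium to the cell, had 1 of 8 probe sets called in 35S:AGL15, where 3.68% of all were, GLR1.4, lower (65.5 ± 11.1 against 127 ± 17.5 in wild type, adjusted p = 0.0451). Among the 8, 2 were called in the double mutant, a share near the 18.9% of all probe sets, both lower, GLR3.3 (96.3 ± 9.16 against 198 ± 28.7 in wild type, adjusted p = 0.0250) and GLR2.7 (54.4 ± 4.60 against 91.6 ± 15.5 in wild type, adjusted p = 0.0340). None of these 3 calls was kept under quantile normalization or median centring, which gave 1 higher call in the double mutant, and GLR1.4 was not kept under spike-in scaling, in the 2-group fit or with an intensity trend. With 1 array left out, 8 of 9 fits gave 0 lower GLR calls in 35S:AGL15 (all but that without 35S:AGL15 replicate 2, which gave 3). In the double mutant 5 of 9 gave 0, those without wild type replicate 1, 2 or 3 or double mutant replicate 1 or 2.

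**Figure D3:**
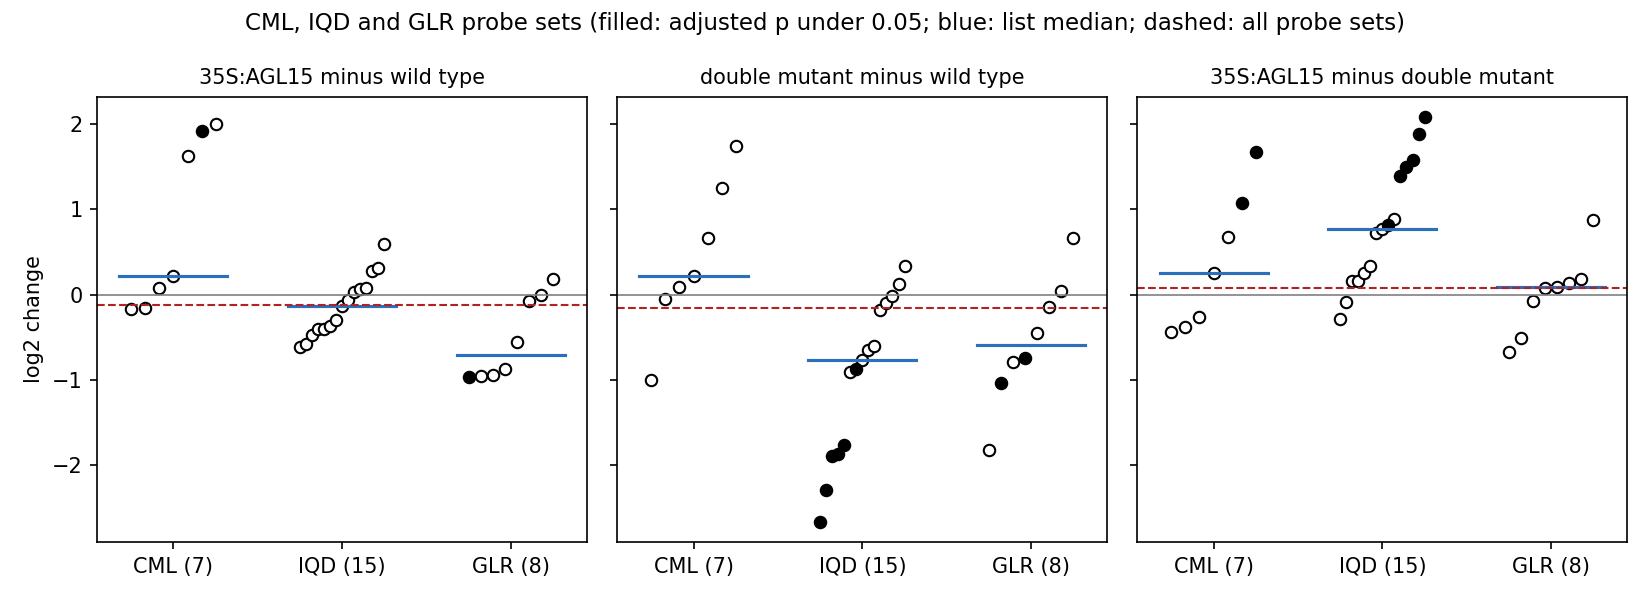
Log2 change (vertical axis) of the 7 CML, 15 IQD and 8 GLR probe sets in the 3 comparisons. Filled points passed an adjusted p of 0.05, blue lines are list medians and the dashed line is the median of all probe sets; the 6 filled IQD points lie below 0 in the double mutant against wild type and above 0 in 35S:AGL15 against the double mutant, while the filled CML points lie above 0.

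**Figure D4:**
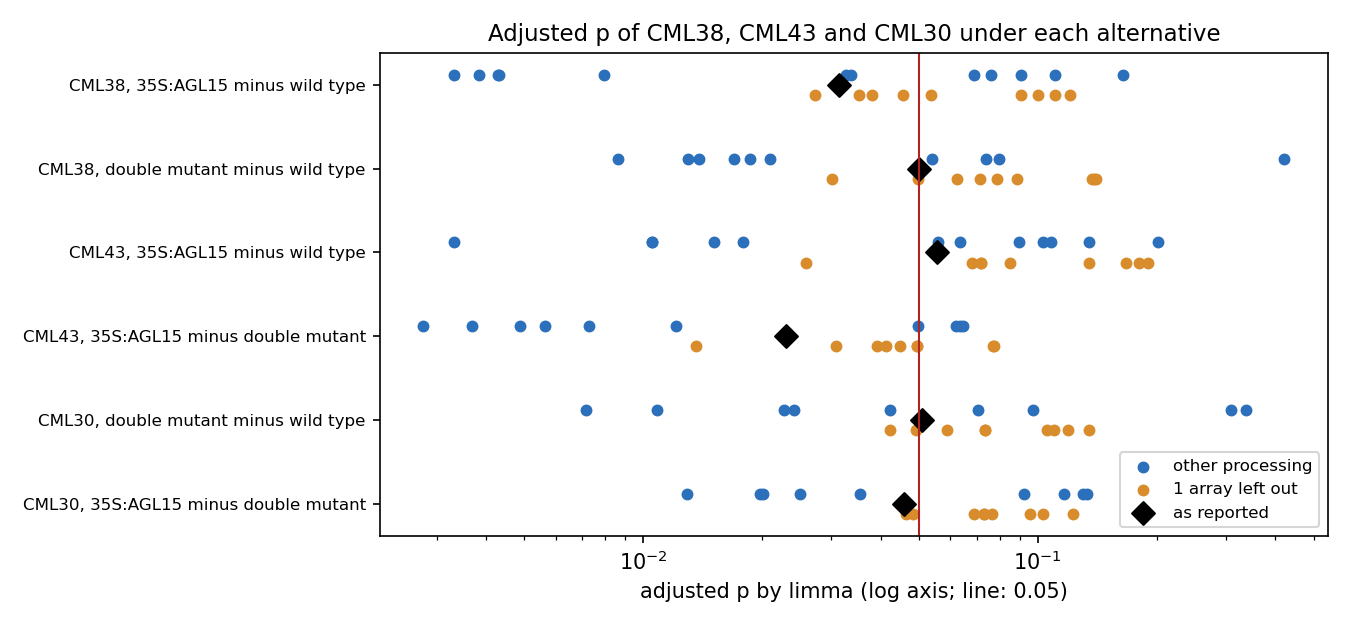
Adjusted p by limma (horizontal log axis, line at 0.05) of CML38, CML43 and CML30 as reported (diamonds), under other processing (blue) and with 1 array left out (orange). Each of the 6 results shown has points on both sides of the line; CML38 in 35S:AGL15 against wild type passed in 11 of 20 different alternatives and CML43 in 35S:AGL15 against the double mutant in 14 of 19.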

How the data were processed

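The authors deposited 1 linear intensity per probe set and array, and nothing in the sources used here names their software, summary method or background correction. The mean without the top and bottom 2% of values was 500.04 to 500.06 on every array, so the deposited intensity values share a trimmed mean. Per the labels' protocols, the arrays received biotin-labelled cRNA from 4 µg total RNA each.

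Intensities were taken to log2 without an offset. After removal of 64 control probe sets, group means of all 22746 probe sets were fitted on the 9 arrays with limma 3.58.1 (lmFit and eBayes) in R 4.3.3, and contrasts were tested two-sided with Benjamini-Hochberg adjustment. In the array annotation 13513 probe sets have 1 gene, 503 have several and 8730 have none, and no symbol was taken from a probe set with several genes. Folds are given where at least 2 of 3 arrays of both groups lay above background. The rule for naming took every CML probe set, called members of the calcium lists (up to 6 a list) and the 5 genes most like the CML gene with the smallest F test p-value.

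The genes, lists, tests and alternatives were chosen with earlier results of these data known. Precision is limited by how few arrays there are.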

Additional observations from a re-analysis of the deposited data

How the results depend on the processing

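The choice of scaling, test and arrays moved CML38, CML43 and CML30 across the threshold. In 35S:AGL15 against wild type 1 CML probe set was called. The count was 0 under spike-in scaling, in the fit on the 2 groups compared, with a term for brighter spike-in controls (the same fit as leaving out 35S:AGL15 replicate 3) and, chosen after seeing the data, within the 5 arrays with dimmer ones. It was 2 with a filter on the dimmest 40%, an intensity trend, an offset of 32 or values raised to background, and 3 with array weights. In the double mutant against wild type the count of 0 became 1 under spike-in scaling or the dim filter, 2 under median centring, the trend, the offset or raised values, and 4 with array weights. Between 35S:AGL15 and the double mutant the count of 2 became 0 under quantile normalization, median centring and the 2-group fit, and 1 under the dim filter. That filter kept 3 of the 7 genes and left out CML30. Under these settings the share of all probe sets called moved as well, from 0.207% to 28.4% in 35S:AGL15 and from 14.7% to 40.3% in the double mutant against wild type, and from 3.81% to 34.8% between 35S:AGL15 and the double mutant, highest with array weights each time. With 1 array left out, each of the 3 counts ran from 0 to 2.

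With the replicate number as a block the counts were 0, 0 and 1. Whether arrays of the same number belong together cannot be settled with 3 arrays per genotype. After removal of group means, 0 of 9 same-numbered pairs correlated above 0.1 over all probe sets, and 3 of 9 over those above background on every array. Over the latter, r ran from −0.42 to 0.31, the highest for replicate 3 of 35S:AGL15 and wild type.

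The direction of CML37 and CML38 against wild type, of CML43 against wild type in 35S:AGL15, of CML30 in the double mutant, and of CML30, CML38 and CML43 in 35S:AGL15 against the double mutant was kept in every alternative. Other directions, of uncalled changes, turned. Spike-in scaling moves every log2 change by one constant, −0.23 and −0.80 in 35S:AGL15 and the double mutant against wild type and 0.57 between these, and median centring does so by 0.24, 0.52 and −0.28, which sets the turns under both. Under spike-in scaling, CML23 was at −0.020, CML30 at −0.16 in 35S:AGL15 against wild type, CML23 at −0.14, CML41 at −0.71 and CML42 at −0.59 in the double mutant against wild type, and CML23 at 0.12, CML41 at 0.31 and CML42 at 0.19 between 35S:AGL15 and the double mutant. Under quantile normalization and median centring, CML41 was at 0.077 and 0.072 and CML42 at 0.13 and 0.080 in 35S:AGL15 against wild type, and CML43 at 0.48 and 0.47 in the double mutant. Median centring put CML37 at −0.023 between 35S:AGL15 and the double mutant, array weights put CML41 at −0.087 in the double mutant, and the spike-in term and the 5 arrays put CML30 at −0.032 in 35S:AGL15. With 1 array left out, changes from wild type ran from −0.048 to 0.57 for CML23 and −0.032 to 0.20 for CML30 in 35S:AGL15, and from −0.10 to 0.33 for CML41 and −0.19 to 0.18 for CML43 in the double mutant. The causes of the turns under other settings were not tested.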

Other observations

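The genes on either side of the 7 CML genes were looked up in the reference gene table after the CML values had been seen. Of 14 such neighbours 11 had an annotated probe set, and 1 of them was called, in a comparison where 18.9% of all probe sets were. AT1G76660, which follows CML38, fell in the double mutant (log2 change −1.41 against wild type, adjusted p = 0.0143 by limma), where CML38 itself had an estimate of 1.24. None of the 11 was called in 35S:AGL15 against wild type or against the double mutant. CML23 lies beside the calmodulin gene CAM4, which was not analysed here.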
